A study of Mus musculus with 16 samples.

Results

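The genes described here encode factors that make ribosomes. Of 49 such genes fixed by name (nucleolar proteins, snoRNP core proteins, RNA polymerase I subunits and assembly factors of both ribosomal subunits), 46 were measured among the 19505 genes tested, each by a single probe set. The list was chosen with earlier results of these data known. The members Nop56, Gnl3 and Ebna1bp2 were not analysed here. Hearts came from 10-week-old male wild-type C57BL/6 mice. In 3 groups the left anterior descending coronary artery was tied for 30 min and the heart was then reperfused for 6, 24 or 72 h, and a sham-operated group was the control, with 4 hearts and 4 Affymetrix arrays in each group. The comparisons ask how the transcript levels differ from sham at each time, and between the times. No hours are labelled for the sham hearts, whose 4 arrays serve all 3 comparisons, so time after surgery and time of reperfusion cannot be told apart. RNA came from the heart with no cell type separated, and the region sampled is not given in the labels, so in these bulk samples more cells of a type and more RNA per cell cannot be told apart. The labels do not say how the hearts of a group were spread over surgery days or array batches, and p-values measure only the spread between these samples.

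Ribosome production starts in the nucleolus, where RNA polymerase I transcribes one long precursor of the 18S, 5.8S and 28S rRNAs. Box C/D and box H/ACA snoRNPs, small RNA and protein particles, guide the methylation and pseudouridylation of that precursor. The small subunit processome and a series of large subunit factors then fold it, cut it and load it with ribosomal proteins before both subunits leave the nucleus. The programme costs much of a cell's energy, rises in growing, activated and dividing cells, and is known to be raised in heart muscle under growth stimuli. Myc, a transcription factor induced early after injury, is known for driving many of these genes through E-boxes.

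For 40 of the 46 genes the RefSeq table (mouse build GRCm38.p6) held promoter sequence, 44 windows in all since a gene can have several starts, and the 250 bases before each annotated start were searched on both strands. Of the 4 below, Nop58 and Nhp2 are shown because they have the largest F statistic of the box C/D and the box H/ACA proteins. Heatr1 and Nop2 were chosen after their letters were seen, to show the motifs. All lie on the plus strand and read 5′ to 3′, and capitals mark the E-box CACGTG and the ETS core CCGGAAG.
Nop58, chr1:59684756-59685005: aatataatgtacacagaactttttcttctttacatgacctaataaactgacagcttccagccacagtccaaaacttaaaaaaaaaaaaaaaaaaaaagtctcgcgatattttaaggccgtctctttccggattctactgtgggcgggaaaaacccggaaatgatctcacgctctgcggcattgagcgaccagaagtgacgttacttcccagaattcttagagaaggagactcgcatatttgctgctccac
Nhp2, chr11:51619523-51619772: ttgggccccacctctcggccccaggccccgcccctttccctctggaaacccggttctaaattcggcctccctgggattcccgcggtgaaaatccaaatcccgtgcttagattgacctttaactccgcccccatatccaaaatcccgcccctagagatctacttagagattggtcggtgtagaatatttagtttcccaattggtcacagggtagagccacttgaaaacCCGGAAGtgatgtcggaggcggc
Heatr1, chr13:12395125-12395374: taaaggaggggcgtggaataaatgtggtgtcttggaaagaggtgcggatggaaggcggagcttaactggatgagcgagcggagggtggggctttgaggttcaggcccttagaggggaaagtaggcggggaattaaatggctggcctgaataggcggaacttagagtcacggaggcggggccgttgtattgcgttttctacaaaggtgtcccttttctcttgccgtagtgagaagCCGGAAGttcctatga
Nop2, chr6:125131633-125131882: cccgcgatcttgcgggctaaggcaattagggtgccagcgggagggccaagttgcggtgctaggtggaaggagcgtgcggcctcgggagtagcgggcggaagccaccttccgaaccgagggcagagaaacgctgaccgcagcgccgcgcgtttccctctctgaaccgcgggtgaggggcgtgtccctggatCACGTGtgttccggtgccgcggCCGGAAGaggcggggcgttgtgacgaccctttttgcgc
Neither motif occurs in the Nop58 window. Polr1b, Ddx21, Bysl and Mrto4 have the largest F of their roles among members with promoter sequence. Their windows also hold neither motif and are not shown. The ETS core begins 23 bases before the start in Nhp2 and 16 bases before it in Heatr1, and Nop2 holds an E-box 60 bases and an ETS core 38 bases before the start. The E-box CACGTG, which reads the same on both strands, was in 2 of the 44 windows (4.55%), those of Imp4 and Nop2, against 6.88% of the 19143 windows of tested genes and 6.02% of all 32851 windows. The ETS core CCGGAAG or its reverse CTTCCGG was in 11 windows (25%), against 9.25% and 6.91%, namely those of Ddx10, Gar1, Grwd1, Heatr1, Ltv1, Nhp2, Nip7, Nolc1, Nop2, Polr1c and Wdr74. The CCAAT box CCAAT (reverse ATTGG) was in 13 windows (29.5%), against 35.0% and 33.8%, and the YY1 core AAGATGG (reverse CCATCTT) in 2 (4.55%), against 4.15% and 4.49%. These shares describe letters in the windows only.

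At 6 h of reperfusion 34 of the 46 genes rose and 0 fell, and at 24 h 36 rose and 0 fell. At 72 h 3 were higher than sham (Nhp2, Ncl and Npm1) and 2 were lower (Bysl and Rrs1). Here rose and fell mean an adjusted p below 0.05 in limma's moderated test over 19505 genes, and each change is the reperfused group's mean log2 signal minus that of sham, ± SE, with n = 4 in each. The members' shares of 73.9% higher at 6 h and 78.3% at 24 h stand beside 7.92% and 13.8% of all genes tested, and 12.3% of all genes were lower at each of these times. At 72 h the members' 6.52% higher and 4.35% lower stand beside 11.5% and 10.3% of all genes. Since the members were chosen with earlier results of these data known, their contrast with all genes may partly reflect that choice. The median change of the members was 0.65 at 6 h (range -0.12 to 2.65), 0.98 at 24 h (-0.50 to 2.47) and 0.00 at 72 h (-0.90 to 1.09), where the median of all genes was -0.04, -0.07 and -0.09. A rise of at least 2-fold was seen for 12 members at 6 h, for 21 at 24 h and for Npm1 alone at 72 h. The share of all genes past this fold cut-off was not counted, so these counts describe the members only. By the F test over the 4 groups 42 of 46 members differed, against 44.5% of all genes, and the others were Gar1, Nop10, Polr1a and Nle1. The heat map of the 46 genes by array shows the 6 h block as even across its 4 hearts and the 24 h block as uneven.

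**Figure D1:**
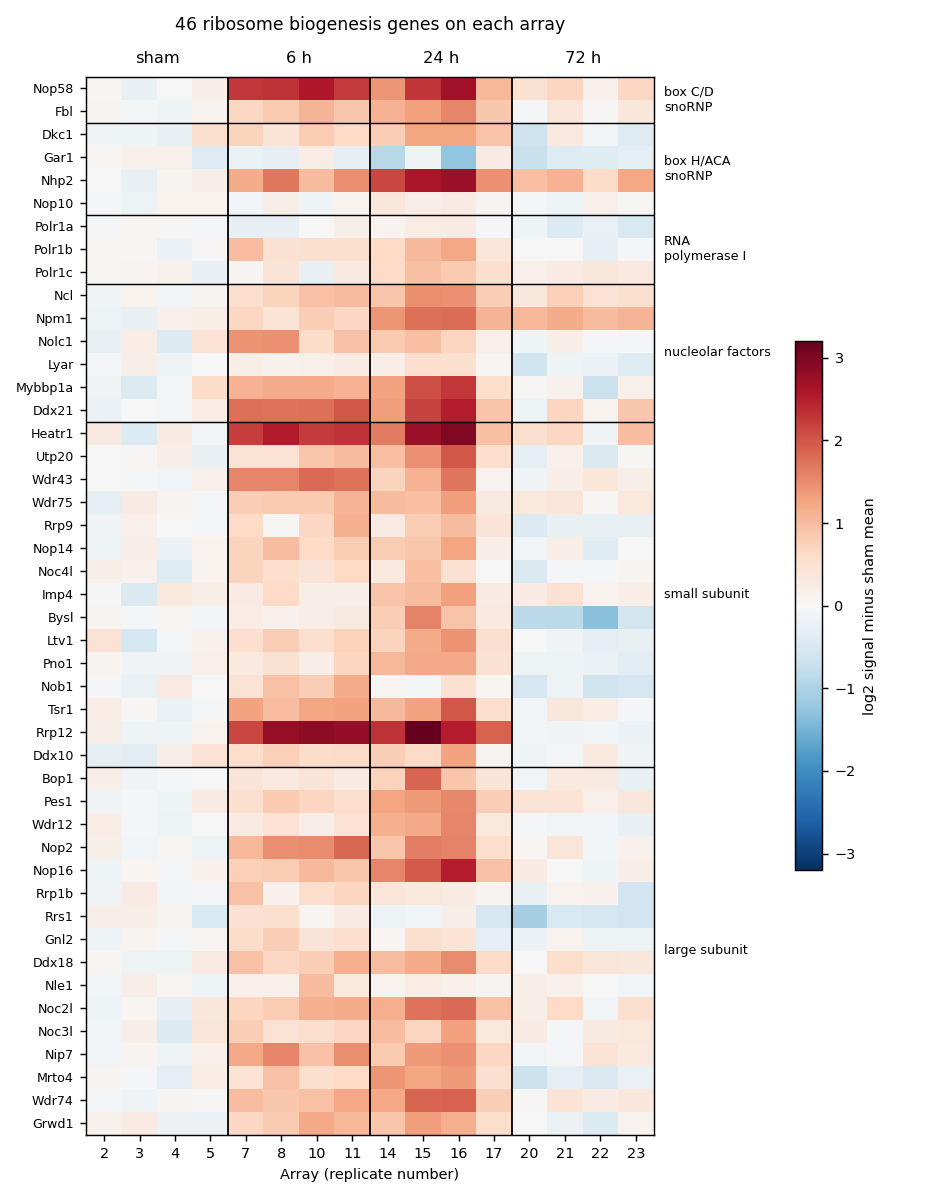
Each row is 1 of the 46 ribosome biogenesis genes, grouped by role, and each column 1 array, labelled by replicate number. Colour is the log2 signal minus the mean of the 4 sham arrays. Red dominates at 6 h and at 24 h, where replicate 17 is paler than the other 3, and most rows return towards white at 72 h.

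Both measured box C/D proteins rose at 6 h and at 24 h. Nop58, a core scaffold of the box C/D snoRNP, had log2 signals of 8.72, 8.44, 8.68 and 8.85 on the sham arrays, 10.93, 10.97, 11.24 and 10.90 at 6 h, 10.08, 10.96, 11.36 and 9.72 at 24 h, and 9.15, 9.36, 8.81 and 9.32 at 72 h. All 6 h and 24 h arrays lay above all sham arrays, and the 72 h arrays overlapped sham. The change was 2.34 ± 0.26 at 6 h (5.05-fold, limma adjusted p = 1.87e-06), 1.86 ± 0.26 at 24 h (adjusted p = 2.44e-05) and 0.49 ± 0.26 at 72 h (adjusted p = 0.196). When only the 72 h and sham arrays were fitted, Nop58 at 72 h passed (limma adjusted p = 0.0374). Fbl, fibrillarin, the methyltransferase of these particles, rose by 0.87 ± 0.16 at 6 h and by 1.22 ± 0.16 at 24 h.

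The 4 box H/ACA proteins, which form a single pseudouridylating particle, did not move as one. Nhp2, one of its core proteins, was at 9.34, 9.11, 9.44 and 9.55 in sham, 10.55, 11.04, 10.36 and 10.84 at 6 h, 11.49, 11.98, 12.11 and 10.82 at 24 h, and 10.31, 10.47, 9.95 and 10.59 at 72 h. All arrays after reperfusion lay above the highest sham array, also at 72 h. It rose by 1.34 ± 0.23 at 6 h, by 2.24 ± 0.23 at 24 h (4.72-fold, limma adjusted p = 1.15e-06) and by 0.97 ± 0.23 at 72 h (adjusted p = 0.00507). Dkc1, dyskerin, the pseudouridine synthase itself, rose by 0.64 ± 0.20 at 6 h and by 1.05 ± 0.20 at 24 h. Its mean at 72 h was 6.62, below 6.76, the level that 75% of the 5222 negative controls stay under, which is called background here. Gar1, another core protein, was at 12.66, 12.76, 12.77 and 12.20 in sham, 12.39, 12.34, 12.84 and 12.33 at 6 h, 11.71, 12.49, 11.33 and 12.85 at 24 h, and 11.88, 12.20, 12.22 and 12.29 at 72 h. It was the one member whose highest group mean was in sham, and its 24 h arrays were spread over 1.5 log2 units with the lowest on replicate 16 and the highest on replicate 17, the reverse of most members. Its changes of -0.12 ± 0.25, -0.50 ± 0.25 and -0.45 ± 0.25 did not pass, the 95% interval at 24 h ran from -1.03 to 0.02, and without replicate 17 of the 24 h group the 24 h change became -0.76 (limma adjusted p = 0.0184). Nop10, the smallest protein of the particle, stayed between 15.12 and 15.64 on every array, with changes of 0.02 ± 0.13, 0.23 ± 0.13 and 0.00 ± 0.13. The 95% interval for Nop10 was -0.25 to 0.30 at 6 h, -0.05 to 0.50 at 24 h and -0.28 to 0.28 at 72 h.

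Of the 3 measured RNA polymerase I subunits 1 rose at 6 h and 2 at 24 h. Polr1b, the second-largest subunit, was at 8.29, 8.26, 8.04 and 8.27 in sham, 9.21, 8.70, 8.74 and 8.72 at 6 h, 8.87, 9.25, 9.46 and 8.62 at 24 h, and 8.24, 8.21, 7.97 and 8.18 at 72 h. Its 6 h and 24 h arrays all lay above sham, and its 72 h arrays overlapped sham. It rose by 0.62 ± 0.17 at 6 h (limma adjusted p = 0.0138, and 0.059 without replicate 7 of that group) and by 0.83 ± 0.17 at 24 h. Polr1c, a subunit shared with RNA polymerase III, rose by 0.74 ± 0.16 at 24 h, with 0.15 ± 0.16 at 6 h. Polr1a, the largest, catalytic subunit, was at 10.44, 10.52, 10.52 and 10.41 in sham, 10.22, 10.22, 10.46 and 10.67 at 6 h, 10.59, 10.72, 10.73 and 10.42 at 24 h, and 10.34, 10.04, 10.28 and 9.98 at 72 h. Its changes of -0.08 ± 0.14, 0.14 ± 0.14 and -0.31 ± 0.14 did not pass, with 95% intervals of -0.38 to 0.21, -0.16 to 0.43 and -0.61 to -0.02, although all 72 h arrays lay below all sham arrays.

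Of the 6 nucleolar factors, 5 rose at 6 h and the same 5 at 24 h, and 2 were still higher at 72 h. Npm1, nucleophosmin, a histone and ribosomal protein chaperone of the nucleolus, was at 14.42, 14.33, 14.74 and 14.78 in sham, 15.23, 15, 15.36 and 15.22 at 6 h, 15.98, 16.33, 16.36 and 15.66 at 24 h, and 15.64, 15.75, 15.57 and 15.65 at 72 h. The 72 h arrays of Npm1 lay above all 6 h arrays, which lay above all sham arrays. The change was 0.64 ± 0.16 at 6 h (1.55-fold), 1.52 ± 0.16 at 24 h (2.86-fold) and 1.09 ± 0.16 at 72 h (2.12-fold, limma adjusted p = 6.58e-05), and Npm1 was the only member higher at 72 h than at 6 h (0.45 ± 0.16, adjusted p = 0.0424). That last call ended without any 1 of replicates 7, 8 and 11 of the 6 h group or 20, 21, 22 and 23 of the 72 h group. Ncl, nucleolin, which binds nascent pre-rRNA, rose by 0.80 ± 0.17, 1.15 ± 0.17 and 0.52 ± 0.17 at the 3 times. Ddx21, an RNA helicase that couples polymerase I transcription to rRNA processing, was at 10.63, 10.84, 10.76 and 11.06 in sham, 12.58, 12.55, 12.58 and 12.81 at 6 h, 12.15, 12.98, 13.32 and 11.72 at 24 h, and 10.67, 11.50, 10.94 and 11.68 at 72 h. The 6 h arrays spanned a narrow range and the 24 h arrays a wide one, all above sham, while the 72 h arrays overlapped sham. Ddx21 rose by 1.81 ± 0.28 at 6 h and 1.72 ± 0.28 at 24 h. Mybbp1a, a nucleolar binding partner of Myb, rose by 1.15 ± 0.29 and 1.55 ± 0.29, and Nolc1, a chaperone of snoRNPs, by 1.11 ± 0.22 and 0.66 ± 0.22. Lyar, a nucleolar zinc finger protein, was at 12.34, 12.59, 12.24 and 12.41 in sham, 12.61, 12.54, 12.55 and 12.66 at 6 h, 12.61, 12.93, 12.90 and 12.45 at 24 h, and 11.76, 12.25, 12.21 and 11.97 at 72 h. Each of the 3 groups overlapped sham. Lyar did not pass against sham (0.20 ± 0.15, 0.33 ± 0.15 and -0.35 ± 0.15), and its 24 h value passed without replicate 17 (0.42, limma adjusted p = 0.0467).

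**Figure D2:**
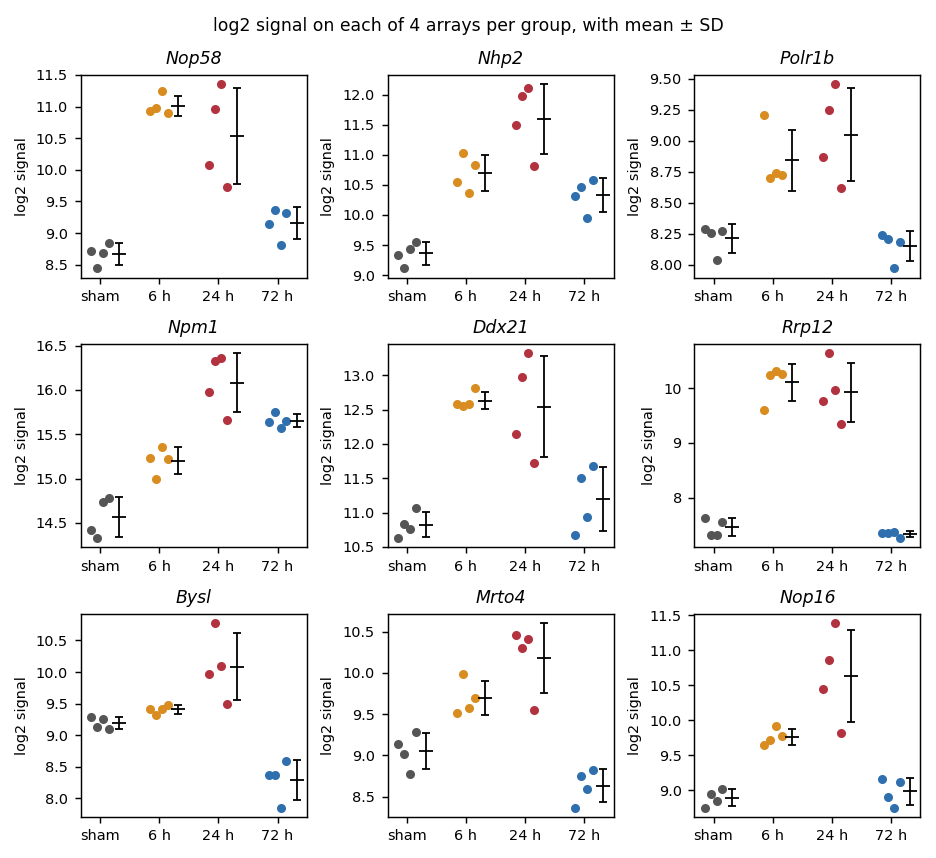
Log2 signal of 9 members on each of the 4 arrays per group (points), with the group mean ± SD beside them; the vertical scales differ between genes and do not start at 0. Nop58 and Rrp12 are high at 6 h and 24 h, Npm1 and Nhp2 keep part of the rise at 72 h, and Bysl lies below sham at 72 h.

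Factors of the small subunit rose in 12 of 15 cases at 6 h and in 13 at 24 h. Rrp12, which acts in nuclear export of pre-ribosomes, had the largest rise of all 46 members at both times. It was at 7.63, 7.31, 7.32 and 7.56 in sham, 9.60, 10.24, 10.32 and 10.27 at 6 h, 9.77, 10.64, 9.96 and 9.34 at 24 h, and 7.36, 7.35, 7.37 and 7.26 at 72 h. The groups at 6 h and 24 h lay far above sham with no overlap, and the 72 h arrays had come back into the sham range or just below it. The change was 2.65 ± 0.22 at 6 h (6.29-fold, limma adjusted p = 3.66e-08), 2.47 ± 0.22 at 24 h (5.54-fold, adjusted p = 1.63e-07) and -0.12 ± 0.22 at 72 h (adjusted p = 0.744). Heatr1, a scaffold of the processome, rose by 2.31 ± 0.33 at 6 h and 2.08 ± 0.33 at 24 h. Wdr43, a WD-repeat protein of the processome, rose by 1.67 ± 0.23 and 0.91 ± 0.23, and Tsr1, a GTPase-like late assembly factor, by 1.20 ± 0.22 and 1.22 ± 0.22. Further processome and late 40S factors also rose at both times: Utp20, Wdr75, Rrp9, Nop14, Ltv1 and Ddx10 rose by 0.62 to 0.89 at 6 h and by 0.62 to 1.23 at 24 h.

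Of the small subunit factors, 2 passed against sham at 6 h and not at 24 h, and 3 at 24 h and not at 6 h. Noc4l, a processome partner of Nop14, passed at 6 h (0.58 ± 0.19) and not at 24 h (0.44 ± 0.19), and these times did not differ by test (-0.14 ± 0.19, limma adjusted p = 0.629). Nob1, the endonuclease that makes the final cut of 18S rRNA, passed at 6 h (0.85 ± 0.17) and not at 24 h (0.14 ± 0.17), and was lower at 24 h than at 6 h by test (-0.71 ± 0.17, limma adjusted p = 0.00411). Pno1, the partner of Nob1 that binds near that cut, had the other order: 0.42 ± 0.16 at 6 h, which did not pass, and a rise of 1.00 ± 0.16 at 24 h, with 24 h above 6 h by 0.58 ± 0.16 (adjusted p = 0.0119). Imp4, a processome protein that helps U3 snoRNA pair with the precursor, rose at 24 h (0.87 ± 0.21) with 0.32 ± 0.21 at 6 h, and the difference of 0.55 ± 0.21 between these times did not pass (limma adjusted p = 0.0524). Bysl, a late 40S assembly factor, was at 9.29, 9.13, 9.26 and 9.10 in sham, 9.42, 9.32, 9.41 and 9.48 at 6 h, 9.97, 10.78, 10.09 and 9.49 at 24 h, and 8.36, 8.36, 7.85 and 8.59 at 72 h. All 24 h arrays of Bysl lay above sham and all 72 h arrays below it. It rose by 0.89 ± 0.21 at 24 h and fell at 72 h, with a change of -0.90 ± 0.21 (limma adjusted p = 0.00345), and was higher at 24 h than at 6 h by 0.68 ± 0.21 (adjusted p = 0.0185). The 72 h mean of Bysl was 3.46-fold below its 24 h mean.

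Factors of the large subunit rose in 12 of 16 cases at 6 h and also in 12 at 24 h. Mrto4, a relative of the P0 stalk protein that holds its place on the pre-60S particle, was at 9.14, 9.02, 8.77 and 9.28 in sham, 9.52, 9.98, 9.57 and 9.69 at 6 h, 10.46, 10.30, 10.41 and 9.55 at 24 h, and 8.37, 8.75, 8.59 and 8.83 at 72 h. The 6 h and 24 h arrays lay above sham and the 72 h arrays overlapped its lower end. Mrto4 rose by 0.63 ± 0.19 at 6 h (limma adjusted p = 0.0218) and 1.13 ± 0.19 at 24 h. Its 6 h value no longer passed when replicate 4 of sham (0.081) or replicate 8 at 6 h (0.0716) was left out. Nop16, a nucleolar pre-60S factor, was at 8.75, 8.95, 8.84 and 9.02 in sham, 9.65, 9.71, 9.92 and 9.77 at 6 h, 10.45, 10.86, 11.39 and 9.82 at 24 h, and 9.16, 8.90, 8.75 and 9.11 at 72 h. The 6 h and 24 h arrays of Nop16 were all above sham. It rose by 0.87 ± 0.23 and then 1.74 ± 0.23 (3.34-fold), and was higher at 24 h than at 6 h by 0.87 ± 0.23 (adjusted p = 0.00706).

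The PeBoW complex, which joins Pes1, Bop1 and Wdr12 and is needed for 28S and 5.8S maturation, rose in all 3 members at 24 h: 1.24 ± 0.16 for Pes1, 0.97 ± 0.22 for Bop1 and 1.06 ± 0.19 for Wdr12. At 6 h Pes1 passed (0.66 ± 0.16), whereas Bop1 (0.34 ± 0.22) and Wdr12 (0.35 ± 0.19) did not, and all 3 were higher at 24 h than at 6 h by test. The mean of Bop1 was below background except at 24 h. Nop2, an rRNA methyltransferase, rose by 1.47 ± 0.22 at 6 h and 1.17 ± 0.22 at 24 h. Nip7, a pre-60S factor, rose by 1.30 ± 0.19 and 1.08 ± 0.19, Wdr74, which serves release of the helicase Mtr4 from pre-60S particles, by 1.00 ± 0.20 and 1.44 ± 0.20, and Noc2l, the homologue of a yeast factor of pre-60S transport, by 0.96 ± 0.21 and 1.41 ± 0.21. Noc3l, a partner of Noc2l, the helicase Ddx18 and Grwd1, a chaperone of a ribosomal protein, rose at both times by 0.62 to 0.95 and 0.83 to 1.08, but all group means of Grwd1 were below background. Gnl2, a nucleolar GTPase, rose at 6 h (0.59 ± 0.17) and had 0.18 ± 0.17 at 24 h. Rrp1b rose at 6 h (0.59 ± 0.18) from a mean below background and had 0.27 ± 0.18 at 24 h. For neither gene did these times differ by test (-0.41 ± 0.17 and -0.32 ± 0.18, limma adjusted p = 0.0706 and 0.216).

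Among large subunit factors 2 did not rise. Rrs1, which brings the 5S RNP into the pre-60S particle, was at 8.37, 8.39, 8.27 and 7.69 in sham, 8.67, 8.68, 8.24 and 8.44 at 6 h, 8.01, 8.09, 8.37 and 7.63 at 24 h, and 7.12, 7.68, 7.65 and 7.57 at 72 h. All 72 h arrays lay below the sham arrays, the nearest by only 0.01. It fell at 72 h, with a change of -0.67 ± 0.19 (limma adjusted p = 0.0159). It no longer passed when replicate 2 (0.0518) or 3 (0.0537) of sham was left out, nor without replicate 20 at 72 h (0.068), and its values at 6 h and 24 h were 0.33 ± 0.19 and -0.16 ± 0.19. Nle1, a substrate of the remodelling ATPase Mdn1, was at 3.18, 3.46, 3.31 and 3.10 in sham, 3.43, 3.41, 4.28 and 3.60 at 6 h, 3.36, 3.50, 3.42 and 3.34 at 24 h, and 3.48, 3.39, 3.25 and 3.17 at 72 h. All of these values are below background and the groups overlapped, so the array says little on Nle1.

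**Figure D3:**
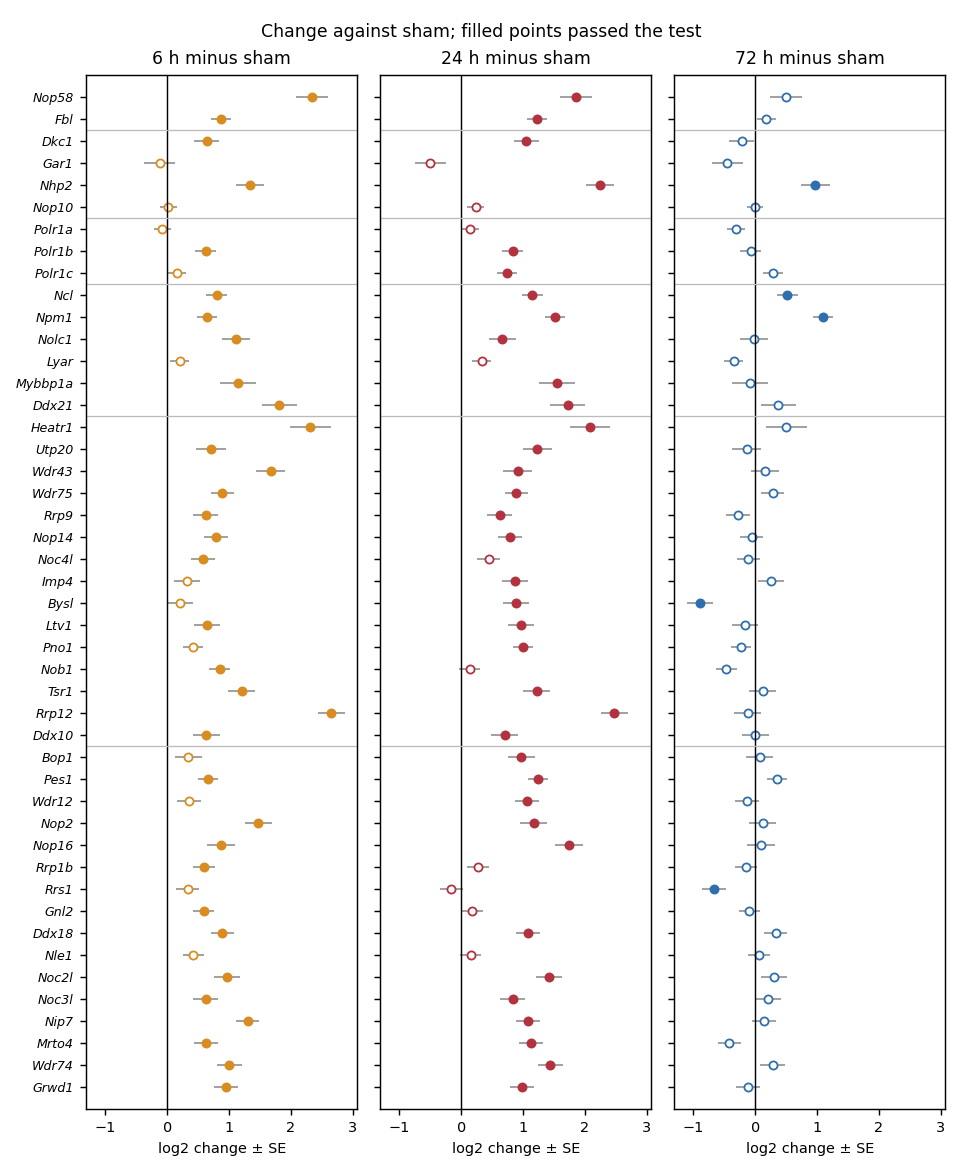
Change in log2 signal against sham for the 46 members (points, with SE bars) at 6, 24 and 72 h of reperfusion, in the role order of the heat map; filled points passed limma's test. Filled points lie right of 0 at 6 h (34) and 24 h (36), and 5 remain at 72 h.

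Between 6 h and 24 h, 35 of the 46 members passed in neither direction. At 24 h 9 members (19.6%) were higher than at 6 h (Nhp2, Polr1c, Npm1, Bysl, Pno1, Bop1, Pes1, Wdr12 and Nop16), where 17.3% of all genes were, and 2 (4.35%) were lower (Wdr43 and Nob1), where 10.9% were. The higher share is near that of all genes, and Nhp2, Npm1, Pes1 and Nop16 had already passed against sham at 6 h. Wdr43 was lower by -0.76 ± 0.23 (limma adjusted p = 0.0180), and the largest difference upward was that of Nhp2, 0.90 ± 0.23 (adjusted p = 0.00652). The highest group mean lay at 6 h for 14 members and at 24 h for 31. Without replicate 17 of the 24 h group 17 members were higher at 24 h than at 6 h, and the lower count was 5 without replicate 16 and 1 without replicate 14 of that group, and 4 without replicate 10 of the 6 h group.

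Most members were lower at 72 h than at 24 h. At 72 h 35 of 46 (76.1%) were lower than at 24 h and 0 were higher, where 6.07% of all genes were lower and 6.85% higher, and the median difference was -0.90 against -0.02 for all genes. The largest was Rrp12 at -2.59 ± 0.22 (6.02-fold lower, limma adjusted p = 2.34e-07), followed by Bysl at -1.79 ± 0.21, Nop16 at -1.65 ± 0.23, Mybbp1a at -1.63 ± 0.29, Heatr1 at -1.58 ± 0.33 and Mrto4 at -1.55 ± 0.19. Of the 36 members raised at 24 h, 32 were among the 35. The remaining 4, Polr1c, Npm1, Nolc1 and Imp4, had differences of -0.47, -0.43, -0.68 and -0.61 that did not pass. Against 6 h, 33 members (71.7%) were lower at 72 h and 1 (2.17%) was higher, where 13.1% of all genes were lower and 17.5% higher. These comparisons share the 24 h, 72 h or sham arrays, so their counts are not independent of each other.

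**Figure D4:**
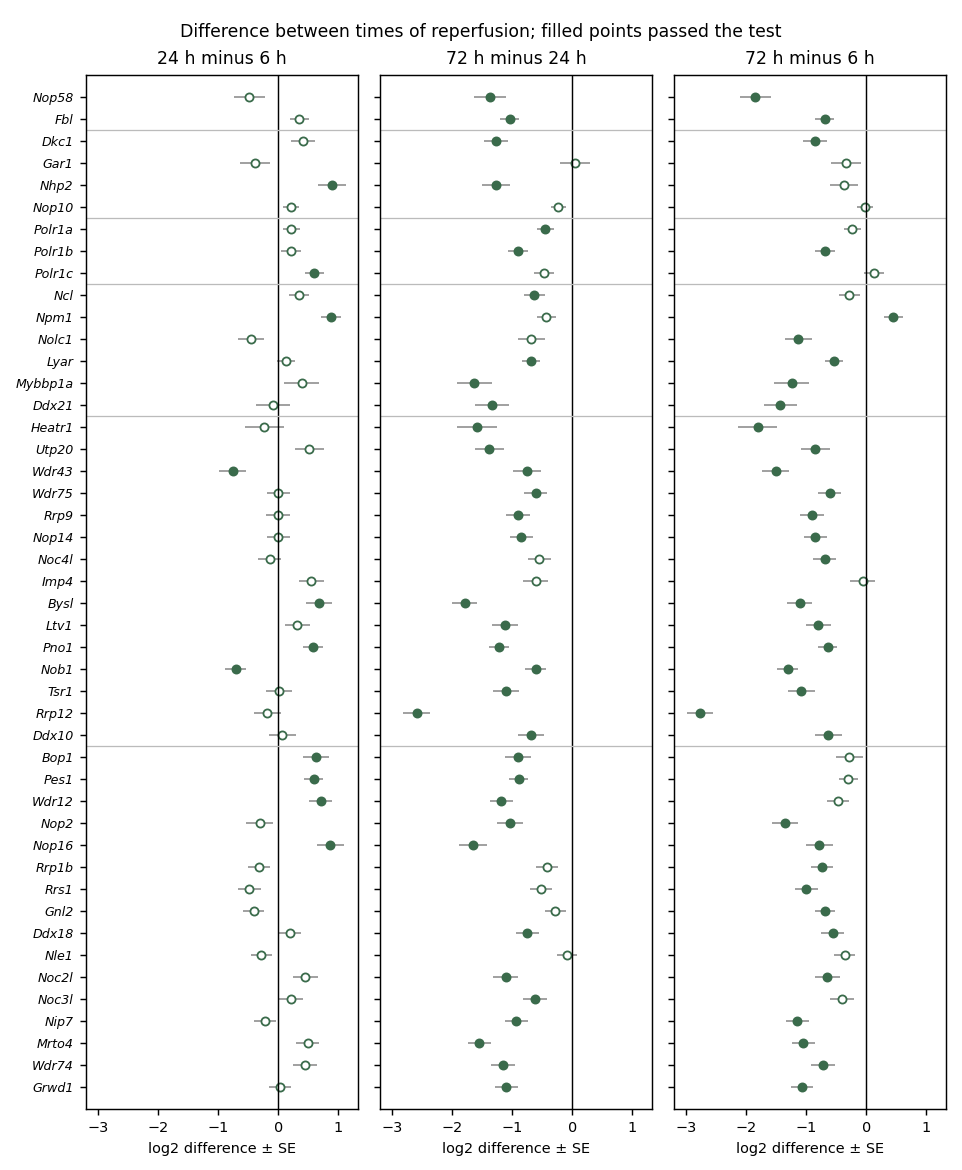
Difference in log2 signal between times for the 46 members (points, with SE bars): 24 h minus 6 h, 72 h minus 24 h and 72 h minus 6 h; filled points passed limma's test. The first panel has 9 filled points right of 0 and 2 left of it, and the second has 35, all left of 0.

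The 24 h arrays differed among themselves in these genes. The median of the 46 members relative to sham was 0.88, 1.21, 1.33 and 0.49 on replicates 14, 15, 16 and 17 of the 24 h group, against 0.67 to 0.77 on the 6 h arrays, -0.08 to 0.14 at 72 h and -0.06 to 0.11 in sham. Replicate 17 was the lowest of its group for 42 of 46 members and replicate 16 the highest for 29. On replicate 17 the neutrophil and macrophage markers were also lowest of the group, with means of 1.10 and 1.93 relative to sham, against 2.29 to 3.90 and 2.64 to 3.62 on the other 3. Replicate 16 also had Myl4, an atrial myosin light chain, at 15.22, against 7.34 to 7.93 on the other 24 h arrays. Of 9 atrial markers 0 were higher and 1 lower at 6 h, 1 and 2 at 24 h, and 2 and 2 at 72 h. The group means of Myl7, Sln, Dkk3, Bmp10 and Fgf12 were below background, but a group mean does not show a single array such as replicate 16. The log2 summed signals were 16.72 to 17.62 in sham, 16.72 to 17.44 at 6 h, 18.85 to 19.54 at 24 h and 18.04 to 19.52 at 72 h. That sum follows mainly Nppa, the brightest, with means of 16.96, 16.97, 19.22 and 18.65. Kcnj3 and Tbx5 had lower means at 24 h (10.45 and 7.50) than in sham (12.36 and 9.39). The mean of the 9 markers relative to sham was 2.35 on replicate 16, against -0.33 to -0.11 on the other 24 h arrays. Without replicate 17, 38 members were higher and 1 (Gar1) was lower at 24 h, with a median of 1.14, and without replicate 16, 33 were higher. Replicates 21 and 23 of the 72 h group had Myl4 at 9.76 and 9.44. The part of these array differences in the members' values was not tested.

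Markers of infiltrating, dividing and resident cells, on lists chosen by name, also differed between the groups, and the time course was not the same for every list. Of 11 neutrophil markers 8 were higher at 6 h, 9 at 24 h and 2 at 72 h, the log2 of their summed signal lay at 7.70 to 8.01 in sham, 10.91 to 13.61 at 6 h, 9.35 to 13.20 at 24 h and 8.79 to 10.30 at 72 h, and Camp, Ngp and Trem1 were below background in every group. Of 10 monocyte and macrophage markers 5, 9 and 9 were higher at the 3 times, with summed signals of 12.82 to 13.11, 13.39 to 13.81, 14.55 to 16.28 and 15.95 to 16.77 in sham and at 6, 24 and 72 h. Macrophage markers stayed raised at 72 h, where 3 of the 46 members and 2 of the 11 neutrophil markers were. Of 12 proliferation genes 0 were higher at 6 h, 11 at 24 h and 12 at 72 h, with summed signals of 12.76 to 13.23, 13.21 to 13.36, 14.17 to 14.91 and 13.90 to 14.86 and with Cdk1 and Bub1 below background throughout. At 6 h, when 34 members had risen, the median change of these proliferation genes was -0.13. Their part in the members' changes was not tested.

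Of 12 cardiomyocyte markers 0 changed at 6 h, 6 were lower at 24 h and 4 at 72 h, with summed signals of 21.56 to 21.57, 21.45 to 21.53, 21.16 to 21.38 and 21.33 to 21.49; Nkx2-5 was below background. The cardiomyocyte genes Tnnt2 and Myl2 were bright on the arrays of every group, with means of 18.79 to 18.92 and 18.42 to 18.55, in RNA labelled as heart. Others of the list were less steady, such as Mybpc3 with a mean of 15.14 at 24 h against 16.18 in sham, and Ryr2 with 14.53 against 15.47. The median change of the 12 cardiomyocyte markers was -0.38 at 24 h. Of 7 fibroblast markers 0 were higher and 2 lower at 6 h, 3 and 2 at 24 h, and 6 and 0 at 72 h, with summed signals of 17.35 to 17.62, 17.08 to 17.37, 16.43 to 17.36 and 18.36 to 18.71. Of 8 endothelial markers 2 were higher and 2 lower at 6 h, and 4 were lower at 24 h and at 72 h, with summed signals of 18 to 18.15, 18.21 to 18.35, 17.38 to 17.73 and 17.45 to 17.66. All 7 T and B lymphocyte markers were below background in every group.

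**Figure D5:**
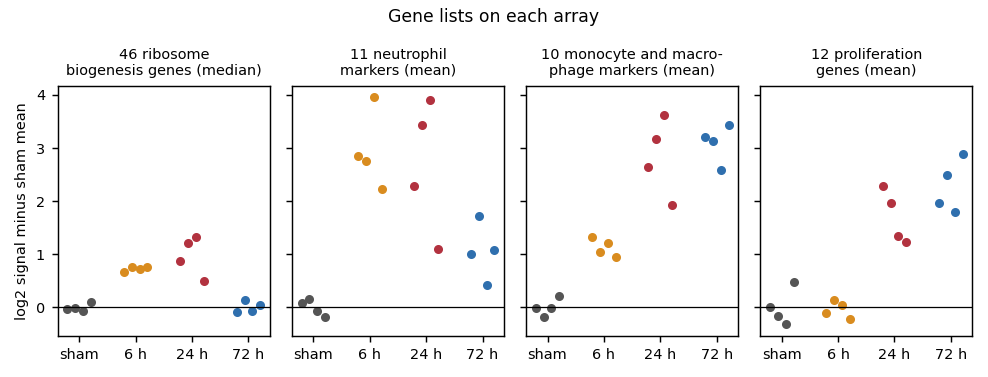
Log2 signal relative to the sham mean on each array (points) for the median of the 46 members and for the means of 11 neutrophil, 10 monocyte and macrophage and 12 proliferation genes. The members are raised at 6 h and 24 h and near 0 at 72 h, where the macrophage and proliferation genes are still high. The neutrophil genes are highest at 6 h and 24 h and come part of the way back at 72 h.

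The counts depend on how arrays are scaled. When each array was centred on its 4 hybridization spike-ins, 21 members were higher at 6 h, 40 at 24 h and 22 at 72 h, where 5% of all genes were higher at 6 h, 23.3% at 24 h and 37.3% at 72 h. With centring on the 4 poly-A spike-in probe sets 19, 33 and 5 members were higher, where 4.43%, 10.4% and 14.1% of all genes were. The median of all genes moved too, to -0.26, 0.24 and 0.40 under the first and to -0.37, -0.16 and 0.09 under the second. Centring adds 1 constant per array to every gene, so the members' median minus that of all genes, 0.69 at 6 h, 1.04 at 24 h and 0.10 at 72 h, is the same under any centring by construction. The 72 h fall of Bysl ended with the first centring (-0.41, limma adjusted p = 0.186) and that of Rrs1 with both (-0.18 and -0.49, adjusted p = 0.455 and 0.119). The 6 h rise of Npm1, of Polr1b and of Mrto4 ended with both, and that of Nop16 with the second (0.54, adjusted p = 0.0621). Nop10 (0.54 and 0.50, adjusted p = 0.0184 and 0.0239) was higher at 24 h and 72 h, Lyar at 24 h (0.64, adjusted p = 0.00804), and Ddx21 (0.87, adjusted p = 0.0186) at 72 h, under the first. Nop58 was higher at 72 h under both, and Nop16 and the dim Nle1 under the first. With plain median centring Mrto4 (-0.53, adjusted p = 0.0444), Polr1a (-0.42, adjusted p = 0.033) and Lyar (-0.46, adjusted p = 0.0303) passed as lower at 72 h, and Mrto4 did so with quantile normalization too.

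Other genes of the pathway, 124 measured of 133 named, were counted in the same way, and no test between lists was run. At 6 h 39 (31.5%) were higher and 3 lower, at 24 h 67 (54.0%) and 1, and at 72 h 5 (4.03%) and 4, with medians of 0.28, 0.52 and -0.03, and 54 (43.5%) were lower at 72 h than at 24 h. Of 44 further small subunit factors 17 rose at 6 h and 33 at 24 h, with 0 lower at either time. Rcl1, a cyclase-like processome protein, rose by 2.27 ± 0.24 at 6 h and 0.78 ± 0.24 at 24 h, Mphosph10, a scaffold protein of the processome, by 1.42 ± 0.20 and 0.72 ± 0.20, and the WD-repeat protein Tbl3 by 1.28 ± 0.19 at 24 h. The means of Tbl3 in sham, at 6 h and at 72 h were below background. Of 43 further large subunit factors 20 (46.5%) rose at 6 h and 21 (48.8%) at 24 h. Eif6, which keeps 60S subunits from joining 40S subunits too early, rose by 1.55 ± 0.36 and 2.25 ± 0.36, and Nol12 by 1.01 ± 0.28 and 2.54 ± 0.28. The sham mean of Nol12, 6.72, was just below background. Of 10 factors that assemble snoRNPs 1 (10%) rose at 6 h (Nufip1, 1.01 ± 0.16) and 6 (60%) at 24 h, among them the ATPase Ruvbl1 (0.98 ± 0.19). Of 13 RNA exosome genes 1 rose and 1 fell at 6 h (7.69% each), where 7.92% and 12.3% of all genes did. At 24 h 4 of them rose (30.8%), where 13.8% of all genes did. The nuclease Dis3 was at 0.87 ± 0.18 and 0.91 ± 0.18 at 6 h and 24 h, and the helicase Mtrex at -0.53 ± 0.17 at 6 h.

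Of 14 further genes of RNA polymerase I transcription 0 rose and 2 fell at 6 h. The share that fell, 14.3%, is near the 12.3% of all genes, and 7.92% of all genes rose. Those were Taf1a, a subunit of the promoter selectivity factor SL1 (-0.65 ± 0.16, limma adjusted p = 0.00474), and Ubtf, the upstream binding factor of rDNA (-0.50 ± 0.16, adjusted p = 0.0311). At 24 h 3 rose (21.4%, against 13.8% of all genes), among them the subunits Polr1e (1.37 ± 0.20) and Polr1d (0.94 ± 0.16), and Taf1a was lower (-0.50 ± 0.16). Taf1a was also lower at 72 h (-0.87 ± 0.16). Ubtf was higher at 24 h than at 6 h by 0.89 ± 0.16 (adjusted p = 0.000288).

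Myc was at 5.48, 5.22, 5.36 and 5.37 in sham, below background, 12.20, 11.55, 12.44 and 11.23 at 6 h, 8.98, 10.30, 10.11 and 7.75 at 24 h, and 7.92, 8.01, 6.46 and 7.70 at 72 h. All arrays after reperfusion lay above sham, the 6 h arrays were the highest, and the 24 h and 72 h arrays overlapped. Myc was lower at 24 h than at 6 h (-2.57 ± 0.43, limma adjusted p = 0.00017) and was still above sham at 72 h (2.16 ± 0.43, adjusted p = 0.00111). On the 24 h arrays Myc was lowest on replicate 17, as were 42 of the members and the means of the neutrophil, macrophage and proliferation lists. A link between Myc and the members was not tested. Of the 11 genes of the Myc network list, Myc included, 2 were higher and 1 lower at 6 h (18.2% and 9.09%), against 7.92% and 12.3% of all genes. At 24 h 2 were higher and 3 lower (18.2% and 27.3%), against 13.8% and 12.3%. At 72 h 1 was higher and 1 lower (9.09% each), against 11.5% and 10.3%. Mxi1, a Max partner that opposes Myc, was lower at 6 h (-0.83 ± 0.19) and 24 h (-0.97 ± 0.19). Mxd1, of the same class, was higher at 6 h (1.00 ± 0.28), and Mlxip was lower at 24 h (-0.77 ± 0.17) and 72 h (-0.62 ± 0.17).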

How the data were processed

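The authors deposited 1 value per probe set and array, per the submitters' processing notes made with Affymetrix Expression Console. For its version, summarization and genome build: not given in the sources used here. Nothing states the base of the deposited log values, which was taken as log2, its usual output. On that deposited log2 scale the lowest value was 1.83 and the highest 19.82, with array medians of 5.84 to 5.95, and were used as they stand. The upper end exceeds a scanner's range, so folds hold on the authors' scale. The design text names another array than the one whose identifiers the table carries, and the title other hours than the labels; the identifiers and the labels were followed. The series has 16 arrays and 28846 probe sets, of which 19572 had 1 symbol, 0 several and 9274 none in the platform annotation. For the 55 genes with several probe sets the one with the highest mean was kept, leaving 19505 genes. Arrays correlated at up to 0.9901, and 0 pairs held identical values.

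One limma 3.58.1 model (lmFit and eBayes, R 4.3.3) covered all 16 arrays, on 12 residual plus 6.943 prior degrees of freedom. P-values were adjusted by Benjamini-Hochberg over all 19505 genes for each of 6 contrasts, with a threshold of 0.05. Precision is limited by the number of arrays, with a median SE of 0.183. The fit was tested on simulated data. Figures were drawn with matplotlib 3.10.9.

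The members and lists were chosen with earlier results of these data known. Values on every array are given for the member with the largest F in each role, the next one in roles of over 5 members, and members lower or with no call against sham. Of the other pathway lists, Myc and up to 2 genes per list and comparison with the largest change past the threshold may be named. Alternatives were quantile normalization, median centring, centring on hybridization or poly-A spike-ins, the mean of probe sets, filters at the 25th percentile, the median and background, trend and robust eBayes, array weights, fits of 2 groups, and leaving out each array. Promoter windows come from RefSeq (GRCm38.p6).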

Additional observations from a re-analysis of the deposited data

Results flagged for a closer look

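In the 60 groups of 4 arrays checked (15 genes in 4 groups), 6 held an array that stood apart from the other 3, where chance gives about 1 in 20 groups. Polr1b was at 8.04 on replicate 4 of sham (others 8.26 to 8.29) and at 9.21 on replicate 7 of the 6 h group (others 8.70 to 8.74). Rrp12 was at 9.60 on the same replicate 7 (others 10.24 to 10.32), Ddx21 at 12.81 on replicate 11 of the 6 h group (others 12.55 to 12.58) and Gar1 at 12.84 on replicate 10 of that group (others 12.33 to 12.39). Rrs1 was at 7.69 on replicate 5 of sham (others 8.27 to 8.39).

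Times of reperfusion differed by limma's tests of the difference itself. Between 24 h and 6 h, 9 of 46 members (19.6%) were higher at 24 h and 2 (4.35%) lower, where 17.3% and 10.9% of all genes were; the first share is near that of all genes and the second below it. Between 72 h and 24 h, 35 (76.1%) were lower at 72 h, against 6.07% of all genes. Between 72 h and 6 h, 33 (71.7%) were lower and 1 (2.17%), Npm1, was higher, against 13.1% and 17.5% of all genes.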

How the results depend on the processing

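No paired analysis was possible because the groups share no replicate numbers. Under hybridization and poly-A spike-in centring the members higher than sham numbered 21 and 19 at 6 h and 22 and 5 at 72 h, those lower at 72 h 0 and 1, those higher at 24 h than at 6 h 31 and 18 and lower 0 and 0, and those at 72 h against 6 h 5 and 3 higher and 7 and 14 lower. All genes shifted too: 50.3% and 25% of them were then higher at 24 h than at 6 h, 69.9% and 47% were higher and 2.46% and 3.18% lower at 72 h than at 6 h, and 37.3% and 14.1% were higher than sham at 72 h. The median change was then 0.43 and 0.31 at 6 h and 0.50 and 0.19 at 72 h. With quantile normalization the 6 h median was 0.72, with 4 lower at 72 h and 5 lower at 24 h than at 6 h, where 12.5% and 12.6% of all genes were. Median centring gave a 72 h median of -0.11, 6 lower at 72 h, 4 lower at 24 h than at 6 h and 0 higher at 72 h than at 6 h. Of all genes 18.1%, 16.9% and 13.8% did so under that centring. Members lower at 24 h than at 6 h numbered 4 with the filter at the median, 4 with the filter at background and 1 with only the 2 groups fitted. Of all genes in these fits 18.2%, 19.3% and 8.38% were lower.

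Leaving out each array in turn gave 25 to 35 members higher at 6 h, 33 to 38 higher and 0 to 1 lower at 24 h, 2 to 3 higher and 1 to 3 lower at 72 h. Between times it gave 7 to 17 higher and 1 to 5 lower at 24 h than at 6 h, 28 to 41 lower at 72 h than at 24 h, and 0 to 1 higher and 29 to 34 lower at 72 h than at 6 h. The medians ranged from 0.65 to 0.77 at 6 h, 0.89 to 1.14 at 24 h and -0.01 to 0.07 at 72 h, and the F test called 41 to 44. The members' median minus that of all genes, which centring cannot move, lay over the other settings at 0.69 to 0.81 at 6 h, 0.92 to 1.23 at 24 h and 0.01 to 0.16 at 72 h. For the single genes named, 1192 values kept direction and side of the threshold, 15 passed newly, 16 no longer passed and 28 without a call changed sign; 0 called values did. The causes were not tested. The arrays' number and dim probe sets limit what can be seen for Nle1, Grwd1, Bop1 and Rrp1b.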
